A study of Homo sapiens with 9 samples.

Results

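Of the 26008 gene rows in the count table, 5 are described here: ACTB, ACTG1, FLNA and TAGLN, named for genes of the actin cytoskeleton, and PCSK7, whose gene lies on the strand opposite TAGLN. They were picked by name after earlier results had shown the PCSK7, ACTG1 and FLNA rows lower with V. cholerae vesicles than in control cells, so for that comparison the values are a description without a test. The E. coli comparison uses the same control libraries, so its values and p-values for these rows are not free of that choice. All 5 rows passed the filter on low counts, as did 3679 rows in all.

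Actin filaments give an epithelial cell its shape, its junctions and its grip on the substrate, and they are built from monomers that many proteins bind, nucleate, cap and crosslink. ACTB and ACTG1 encode the cytoplasmic β- and γ-actins, FLNA encodes filamin A, which crosslinks filaments and ties them to the membrane, and TAGLN encodes transgelin, an actin-binding protein of the calponin family that is also an early smooth muscle marker. Many of these genes are targets of serum response factor (SRF), whose coactivators of the MRTF family bind monomeric actin, so that transcription of actin genes follows the state of the filaments. PCSK7 encodes a proprotein convertase, a membrane-bound protease of the secretory pathway.

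The established human line HCT8, derived from a colorectal adenocarcinoma of the ileocecal region, was kept for 5 h with membrane vesicles of V. cholerae C6706, with membrane vesicles of E. coli MC1061, or as a control that the labels call untreated and the protocol gives as 20 mM Tris-HCl. Membrane vesicles are small particles that bacteria shed from their surface, and the series title names their effect on transcription and epigenetics of colon carcinoma cells as the subject. Each group had 3 libraries of polyadenylated RNA, with 363557 to 733412 counts per library. The labels do not say that the libraries came from separate cultures, so a p-value measures spread among these libraries that may be technical.

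The CArG box, the site that SRF binds, was searched on both strands of the 250 bases before each transcription start in RefSeq promoters on GRCh38.p14, since the actin genes are textbook SRF targets. Entries were matched for 3 of the 5 genes. ACTG1 and FLNA each held 1 box and PCSK7 held no match in this window, which says only that these letters are not there. ACTB and TAGLN were not matched. The windows of 30 bases around the boxes are given 5′ to 3′ on the minus strand, which is the strand of both genes, with the box in capitals: chr17:81512874-81512903 for ACTG1 and chrX:154374709-154374738 for FLNA.
ACTG1: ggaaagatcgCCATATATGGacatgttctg
FLNA: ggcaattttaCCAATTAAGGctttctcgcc
In both genes the box ran from 94 to 85 bases before the start. Of all 35116 promoters, 407 (1.16%) held such a box, and of 167 promoters of genes in the actin lists used here, 16 (9.58%) did. A list of SRF, its coactivators and other targets is among these, so a higher share was partly built in. Promoters and not genes are counted, and a gene such as FHL2 enters more than once. A match is a run of letters and not a measured binding site.

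What a row counts has to be read with the strands in mind. By the GENCODE 29 annotation on GRCh38, PCSK7 lies on the minus strand and TAGLN on the plus strand of chromosome 11. Their exons overlap by 446 nt that reach the 3′ ends of both genes. PCSK7 exons also overlap those of another plus-strand gene, AP000892.3, by 3940 nt that reach its 3′ end, and that gene has no row of its name. The library kit keeps strand, but the sources used here do not give how strand was set in counting. Which strand's transcripts gave a row's reads was not tested. Among 28 actin-list genes where the gene and its opposite neighbour both have a row, the opposite row held more counts in 13. The VIL1 row (villin, a microvillus bundling protein) held 18 counts over the 9 libraries and the USP37 row opposite it held 5254, and the ACTN4 row (α-actinin, a crosslinker) held 74 against 8105 in the CAPN12 row. Others went the other way, such as FMNL3 (a formin) with 1583 counts against 656 in the PRPF40B row and MYH10 (a non-muscle myosin heavy chain) with 565 against 1 in the NDEL1 row. These pairs differ in their overlap, which is 2643 nt at the 3′ end of PRPF40B for FMNL3 and 72 nt for MYH10 and NDEL1. The number of pairs on each side is therefore no measure of which strand was counted. ACTB and ACTG1 (chromosomes 7 and 17) have no annotated exon opposite them, and FLNA (chromosome X) has 44 nt opposite an antisense gene that has no row of that name among the rows used. The rows' values are therefore not established as levels of the genes' own transcripts, and reads of near-identical sequence may have been split between ACTB and ACTG1.

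These rows held few counts, at 10 to 48 per library, and why they held so few was not tested. CPM, the usual depth-scaled unit, was computed over each library's tested counts with TMM scaling, and 3 counts were worth 3.88 to 9.07 CPM. All 8 epithelial markers on the list had counts, but nearly all of these were in the KRT8 row, with 7550 to 11346 per library. Over the 9 libraries, KRT18 held 655 counts, EPCAM 90, CDH1 32 and ELF3 6. Of 4 leukocyte markers, PTPRC and CD3E were at 0, CD68 held 375 and LYZ held 142. The marker rows alone thus do not establish the cell type. Of 9 smooth muscle and fibroblast markers in the table, 5 were at 0 in all libraries, DES (desmin) among them, ACTA2 held 46 counts and CNN1 held 2. The MYH11 row held 1124, which is nearly all of the list's counts. The summed level of the list was 241 to 304 CPM in controls, 258 to 441 CPM with V. cholerae vesicles and 200 to 298 CPM with E. coli vesicles. For this sum, CPM was taken over all counts of a library without TMM scaling. The part of these cells' markers in the TAGLN values was not tested. In such bulk libraries, fewer cells of a type and less RNA per cell cannot be told apart.

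**Figure D1:**
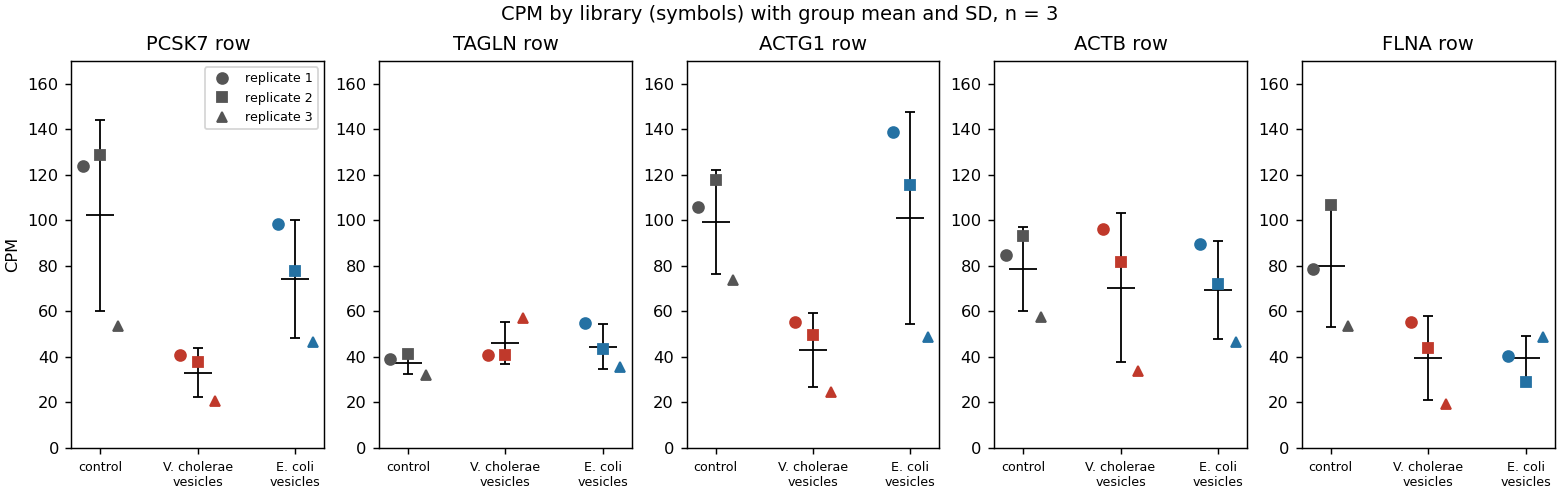
CPM (vertical axis, from 0) of the 5 rows in each of the 9 libraries, by group, with symbols for the replicate number, a line for the group mean and a bar for the SD (n = 3). The PCSK7 row lies at 20.7 to 40.8 CPM with V. cholerae vesicles and at 53.8 to 129 CPM in controls, and replicate 3 is the lowest library of every group for PCSK7, ACTG1 and ACTB.

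The PCSK7 row was the lowest of the 5 relative to control with V. cholerae vesicles. It held 124, 129 and 53.8 CPM in control replicates 1, 2 and 3 (41, 47 and 27 counts), 40.8, 37.9 and 20.7 CPM with V. cholerae vesicles (14, 13 and 16 counts), and 98.2, 77.9 and 46.6 CPM with E. coli vesicles (34, 27 and 21 counts). Every V. cholerae library lay below every control and every E. coli library, while the E. coli and control libraries overlapped. The order of the group means was control at 102.2 ± 42.0 CPM, E. coli at 74.2 ± 26.0 CPM and V. cholerae at 33.1 ± 10.9 CPM (SD, n = 3).

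Against control, the log2 fold change of the PCSK7 row with V. cholerae vesicles was -1.67 ± 0.42 (SE), or 0.315 times the control level. With the replicate number as a block it was -1.58 ± 0.26. At a Benjamini-Hochberg adjusted p under 0.05 in edgeR, 0 of the 5 rows were called in the group-only fit, where 0.0544% of all rows were, PCSK7 alone was called with the block, where 0.353% were, and PCSK7 and ACTG1 were called in replicates 1 and 2 only, where 1.88% were. Since this contrast chose the rows, nothing is read from these counts. Groups that do not overlap, with the vesicle libraries lower, were found for PCSK7 and ACTG1, and for 3.64% of all rows tested.

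Replicate 3 was the lowest library of the PCSK7 row in all groups, and the difference was there without it. Library against library of the same number, the log2 ratio of V. cholerae to control was -1.50, -1.65 and -1.20 for replicates 1, 2 and 3, so the gap was smallest in replicate 3. With replicates 1 and 2 alone the fitted value was -1.68 ± 0.30. Leaving out V. cholerae replicate 3 gave -1.34, leaving out control replicate 3 gave -2.01, and with the block kept the 9 values ran from -1.68 to -1.45.

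**Figure D2:**
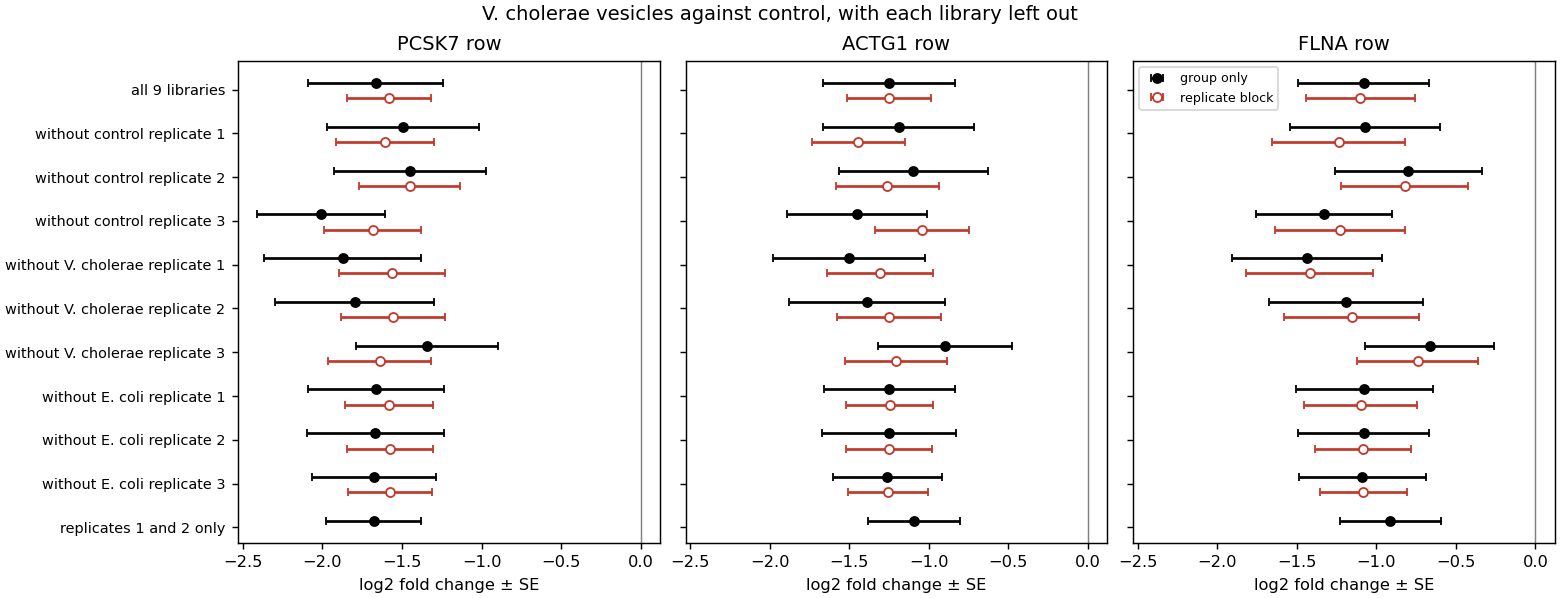
Log2 fold change ± SE (horizontal axis) of the PCSK7, ACTG1 and FLNA rows, V. cholerae vesicles against control, with all 9 libraries, with each library left out and with replicates 1 and 2 only, for the group-only fit (filled) and the fit with the replicate block (open). All values lie below 0; without V. cholerae replicate 3 the group-only value of FLNA is -0.66 and that of PCSK7 is -1.34.

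E. coli vesicles gave a smaller difference in the PCSK7 row that did not pass the test. The log2 fold change against the same controls was -0.45 ± 0.39 (edgeR quasi-likelihood test, adjusted p = 0.737, and adjusted p = 0.319 with the block). The 95% interval, from the SE and 6 residual degrees of freedom, ran from -1.41 to 0.51. The E. coli library was lower in all 3 same-numbered pairs, at -0.32, -0.69 and -0.19, as it was for 20% of all rows tested. The value moved to -0.78 without control replicate 3 and to -0.19 without E. coli replicate 3.

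The direct comparison of the vesicles shares its V. cholerae libraries with the contrast that chose the rows. In it the PCSK7 row was at -1.21 ± 0.43, with an adjusted p of 0.383 in edgeR and of 0.0740 with the block (-1.15 ± 0.28). Over the alternatives this adjusted p ran from 0.00870, with replicates 1 and 2 only, to 0.999. The ratios of same-numbered libraries were -1.18, -0.95 and -1.01, close to each other, and the groups did not overlap, as was the case for 4.1% of rows tested in this direction. No row at all was called in this comparison by group alone (0% of 3679, with 333 or 9.05% at an unadjusted p under 0.05, 5 called by DESeq2 and 0 by limma voom), 2 rows (0.0544%) were called with the block, and 23.6% of rows were called when replicate 3 was left out of all groups.

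TAGLN, the gene on the other strand at PCSK7's 3′ end, had a row that was not lower. It held 39.3, 41.1 and 31.9 CPM in controls (13, 15 and 16 counts), 40.8, 40.8 and 56.9 CPM with V. cholerae vesicles (14, 14 and 44 counts) and 54.9, 43.3 and 35.5 CPM with E. coli vesicles (19, 15 and 16 counts). The 3 groups overlapped, with means of 37.4 ± 4.91, 46.2 ± 9.29 and 44.6 ± 9.76 CPM (SD, n = 3).

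The higher V. cholerae value of the TAGLN row came from 1 library. The fitted log2 fold change was 0.34 ± 0.35, but the same-numbered ratios were 0.05 and -0.01 in replicates 1 and 2 and 0.75 in replicate 3, and replicates 1 and 2 alone gave 0.02. V. cholerae replicate 3 was also the deepest library, with 1.95 times the mean total of replicates 1 and 2, and its TAGLN count was 3.14 times theirs while its PCSK7 count was 1.19 times theirs. With E. coli vesicles the TAGLN row was at 0.25 ± 0.36 (edgeR adjusted p = 0.884), and between the vesicles it was at 0.09 ± 0.34 (edgeR adjusted p = 0.971). The direct difference changed sign, to -0.27, in replicates 1 and 2 alone.

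Set against each other, the 2 rows of the overlapping pair give a ratio within each library that does not depend on scaling. PCSK7 made up 75.9%, 75.8% and 62.8% of the pair's counts in control replicates 1, 2 and 3, 50.0%, 48.1% and 26.7% with V. cholerae vesicles and 64.2%, 64.3% and 56.8% with E. coli vesicles. The V. cholerae shares lay below all others, and within each group replicates 1 and 2 were within 2 points of each other and replicate 3 was lower. Exact 95% binomial (Clopper-Pearson) intervals were 22.5 to 39.4 points wide and cover counting error only. The mean E. coli share minus the mean control share was -9.78 points, and the groups overlapped (two-sided exact permutation test, p = 0.3, where 3 against 3 cannot go below 0.1). The shares were computed after the rows' values had been seen. PCSK7 was picked with its lower V. cholerae values known, so a lower share there was partly built in.

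The other rows of the same stretch of chromosome 11 lay nearer to control than PCSK7 with V. cholerae vesicles, but not all of them with E. coli vesicles. Of 8 named neighbours, 6 had enough counts, with a median log2 fold change of -0.11 with V. cholerae vesicles and -0.18 with E. coli vesicles, PCSK7 and TAGLN included. BACE1, which encodes the β-secretase and held the most counts of them, was at 0.04 ± 0.24 with V. cholerae vesicles. SIDT2 was at -0.52 ± 0.36, with 26.2, 40.8 and 56.9 CPM against 72.5, 49.4 and 63.7 CPM in controls, so these groups overlapped. BACE1-AS, the antisense row of BACE1, was at -1.49 ± 0.44 with E. coli vesicles (edgeR adjusted p = 0.193), further from control than PCSK7, with 17.3, 11.5 and 26.6 CPM against 66.5, 68.6 and 29.9 CPM. PCSK7 was also the 1 row with enough counts among 9 proprotein convertase genes, so no other member of that family can be set beside it.

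**Figure D3:**
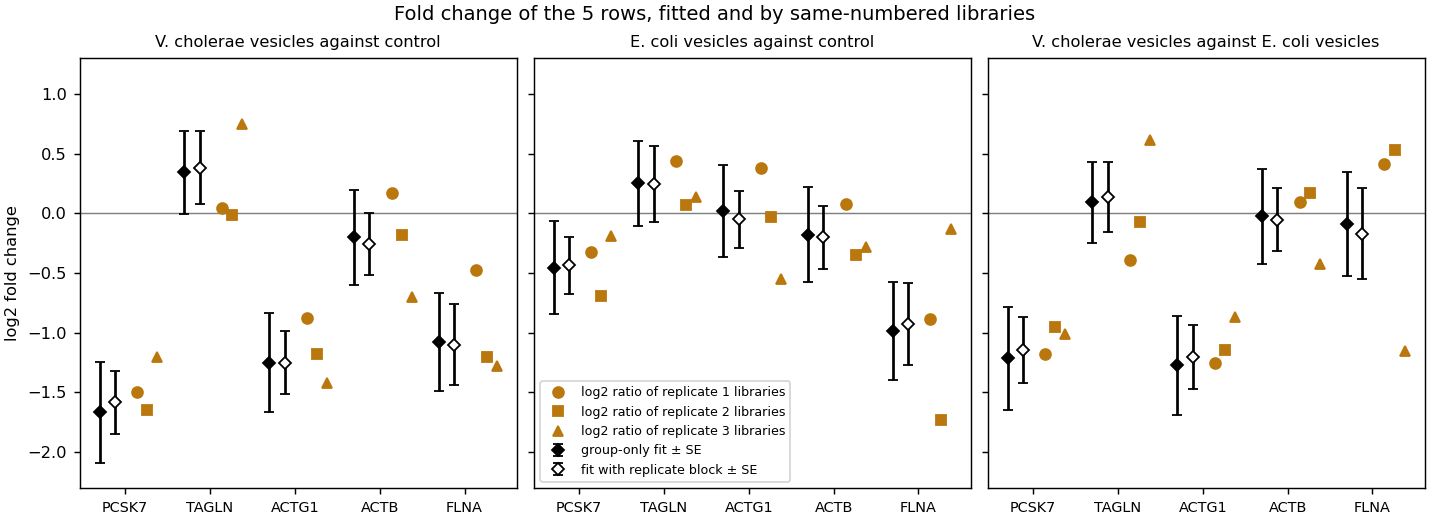
Log2 fold changes (vertical axis) of the 5 rows in the 3 comparisons: fitted values ± SE by group alone (filled) and with the replicate block (open), and the ratio of each pair of same-numbered libraries. The pairs of the PCSK7 row lie between -1.65 and -1.20 with V. cholerae vesicles, and those of the FLNA row with E. coli vesicles spread from -1.73 to -0.13.

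The ACTG1 row, named for the γ-actin gene, was lower with V. cholerae vesicles and near the control mean with E. coli vesicles. It held 105.8, 117.9 and 73.7 CPM in controls (35, 43 and 37 counts), 55.3, 49.6 and 24.6 CPM with V. cholerae vesicles (19, 17 and 19 counts) and 138.7, 115.4 and 48.8 CPM with E. coli vesicles (48, 40 and 22 counts). V. cholerae libraries lay below all controls, and E. coli replicate 3 lay within the V. cholerae range. Group means were 101.0 ± 46.6 CPM for E. coli, 99.1 ± 22.9 CPM for control and 43.1 ± 16.3 CPM for V. cholerae (SD, n = 3), and the first and second of these do not differ beyond their spread.

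With V. cholerae vesicles the log2 fold change of the ACTG1 row was -1.25 ± 0.41, and -1.25 ± 0.26 with the block. In same-numbered libraries it was -0.88, -1.18 and -1.42, largest in replicate 3. Replicates 1 and 2 alone gave -1.09 ± 0.29, and leaving out V. cholerae replicate 3 gave -0.90 by group alone. Replicate 3 thus added to the size of the difference, and the sign was the same without it.

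With E. coli vesicles the ACTG1 row was at 0.02 ± 0.39 (edgeR adjusted p = 0.997; 95% interval -0.93 to 0.97), and the sign of this value changed with the scaling, to -0.05 by library size alone. The pairs were at 0.38, -0.03 and -0.55 in replicates 1, 2 and 3. Between the vesicles the row was at -1.27 ± 0.42, with an edgeR adjusted p of 0.368, of 0.0715 with the block (-1.20) and of 6.18e-04 to 0.999 over all alternatives. V. cholerae was lower in all 3 pairs, at -1.26, -1.15 and -0.87, as for 17.9% of rows tested. Without E. coli replicate 3 the value was -1.63 and was called, as were 5.25% of all rows in that fit.

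The ACTB row, named for the β-actin gene, lay at like levels in all groups. It held 84.6, 93.2 and 57.7 CPM in controls (28, 34 and 29 counts), 96.1, 81.6 and 33.6 CPM with V. cholerae vesicles (33, 28 and 26 counts) and 89.6, 72.1 and 46.6 CPM with E. coli vesicles (31, 25 and 21 counts). All groups overlapped, with means of 78.5 ± 18.5, 70.4 ± 32.7 and 69.4 ± 21.6 CPM (SD, n = 3).

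The log2 fold change of the ACTB row was -0.20 ± 0.39 with V. cholerae vesicles and -0.18 ± 0.40 with E. coli vesicles (edgeR adjusted p = 0.948; 95% interval -1.15 to 0.79). What difference there was with V. cholerae vesicles came from replicate 3, with same-numbered ratios of 0.17, -0.18 and -0.70: without V. cholerae replicate 3 the value was 0.20, and replicates 1 and 2 alone gave -0.01. Between the vesicles the ACTB row was at -0.02 ± 0.40 (edgeR adjusted p = 0.999; 95% interval -0.996 to 0.948), a value whose sign changed by library size alone, to 0.03.

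Within the actin pair, ACTG1 made up 55.6%, 55.8% and 56.1% of the counts of both rows in controls, 36.5%, 37.8% and 42.2% with V. cholerae vesicles and 60.8%, 61.5% and 51.2% with E. coli vesicles. The V. cholerae shares lay below those of all other libraries, and replicate 3 was the highest of its group there. ACTG1 was picked with its lower V. cholerae values known, so a lower share there was partly built in. The control shares lay within 1 point of each other although each rests on few counts, with exact 95% intervals 22.4 to 31.2 points wide. The E. coli mean was 2.00 points above control (two-sided exact permutation test, p = 0.4). Summed, so that a split of reads between these rows no longer matters, the rows were at -0.68 ± 0.38 with V. cholerae vesicles and at -0.06 ± 0.37 with E. coli vesicles (edgeR adjusted p = 0.981). The sum does not restore reads that counting may have left out or given to other rows.

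**Figure D4:**
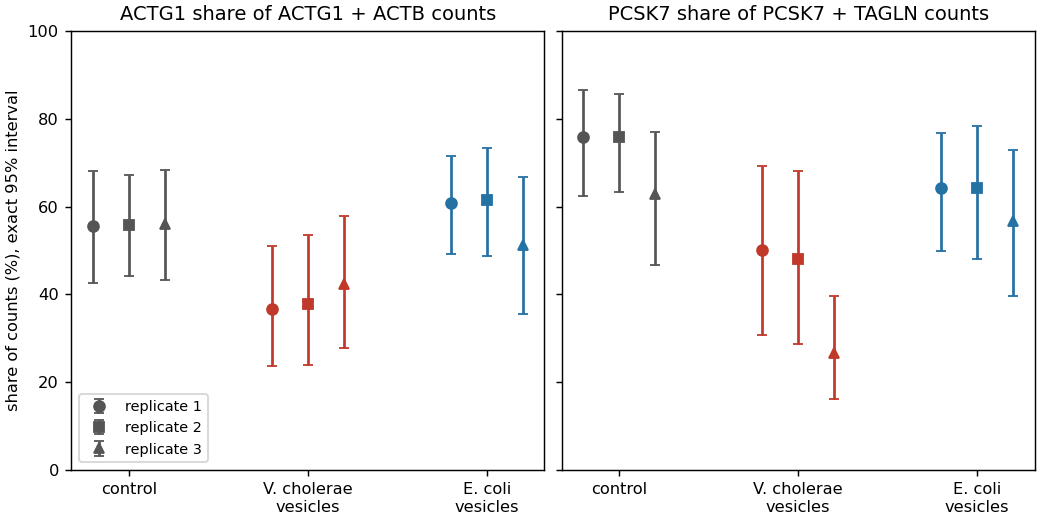
Share of counts (%, vertical axis from 0 to 100) held by ACTG1 within the ACTG1 and ACTB rows, and by PCSK7 within the PCSK7 and TAGLN rows, in each library with its exact 95% binomial interval. The V. cholerae points are at 36.5% to 42.2% and at 26.7% to 50.0%, below the points of the other groups, and many intervals overlap.

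The FLNA row, named for the gene of the crosslinker filamin A, had mean levels with both vesicles near 0.5 of the control mean. The row passed the test of all libraries with neither. It held 78.6, 107.0 and 53.8 CPM in controls (26, 39 and 27 counts), 55.3, 43.7 and 19.4 CPM with V. cholerae vesicles (19, 15 and 15 counts) and 40.4, 28.9 and 48.8 CPM with E. coli vesicles (14, 10 and 22 counts). Every E. coli library lay below every control, as for 8.7% of rows tested, while V. cholerae replicate 1 lay above control replicate 3. The means were 79.8 ± 26.6, 39.5 ± 18.3 and 39.4 ± 10.0 CPM (SD, n = 3).

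Replicate 3 acted in opposite ways on the FLNA row in the 2 vesicle comparisons, which share their controls. With V. cholerae vesicles the fitted value was -1.08 ± 0.41, the pairs were at -0.47, -1.20 and -1.28, and leaving out V. cholerae replicate 3 gave -0.66. With E. coli vesicles it was -0.99 ± 0.41 (edgeR adjusted p = 0.372, and adjusted p = 0.151 with the block), and the pairs were at -0.88, -1.73 and -0.13. The E. coli difference thus lay in replicates 1 and 2, where it was -1.42 ± 0.34 and passed the test (edgeR adjusted p = 0.00260). The controls in this test had a part in the choice of the row. Over the alternatives the adjusted p ran from 0.00167 to 0.983, and DESeq2 gave none.

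That call has to be read against its background: 24.4% of all rows were called with E. coli vesicles in replicates 1 and 2, against 0.19% in the group-only fit and 2.28% with the block, and FLNA was 1 of 5 members called there. Of the 5 rows, 0 were called with E. coli vesicles in the fits of all libraries, and FLNA had an unadjusted p of 0.0284 in edgeR, with 11.3% of all rows at an unadjusted p under 0.05. Values in the E. coli comparison also went with the annotated position of a row's exon overlap with an opposite coding gene. Rows with the overlap 3000 nt or more from that gene's 3′ end had a median log2 fold change of -0.38. Rows with it under 500 nt away had 0.15. Between the vesicles these medians were 0.37 and -0.14, and with V. cholerae vesicles against control they were -0.02 and 0.01. The PCSK7 and TAGLN rows belong to the set under 500 nt, and the part of overlap position in their values was not tested. Read positions were not measured. FLNA, whose only annotated opposite gene is of antisense type, belongs to neither set, so this was not tested for it. Between the vesicles the FLNA row was at -0.09 ± 0.43 (edgeR adjusted p = 0.976; 95% interval -1.16 to 0.97), and the sign changed to 0.51 in replicates 1 and 2 alone.

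Across the 5 rows, replicate 3 was below replicates 1 and 2 in all 3 groups for PCSK7, ACTG1 and ACTB, as for 659 of 3679 rows tested (17.9%), and another 876 (23.8%) were above in all groups. In CPM, replicate 3 of the PCSK7 row was at 0.425 to 0.529 times the mean of the other replicates of its group, and that of ACTG1 at 0.384 to 0.659 times. FLNA and TAGLN were below in 2 groups and above in the third. In raw counts, V. cholerae replicate 3 held 0.852 times the mean ACTB count of replicates 1 and 2, 1.06 times for ACTG1 and 0.882 times for FLNA, in a library with 1.95 times their total.

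The PCSK7 and ACTG1 rows had like profiles over the 9 libraries, at a Pearson correlation of 0.941 in log2 CPM, which is given as a description since the points share their libraries, depth and replicate 3. Among tested rows of at least 2 CPM, the 5 most like PCSK7 were MMP24-AS1 (0.949), ACTG1, MRPL20 (0.932), SUPT20H (0.924) and RPL4 (0.912). The 5 most like ACTG1 were RPL35 (0.963), MLX (0.960), RPS24 (0.948), PCSK7 and MMP24-AS1 (0.938). TAGLN correlated at -0.15 with PCSK7 and at -0.10 with ACTG1.

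The wider actin cytoskeleton was followed in 8 lists of 115 genes by role, of which 113 had a row and 31 had enough counts for the test, ACTB, ACTG1, FLNA and TAGLN included. The 82 others held a median of 14 counts over all 9 libraries, and 10 were at 0. With V. cholerae vesicles 23 of the 31 rows were lower (74.2%, against 49.2% of all rows tested), with a median log2 fold change of -0.20 against 0.01 over all rows, and 0 were called with or without the block. Without the 4 members it was 20 of 27, at -0.19, and in replicates 1 and 2 alone 20 of 28, at -0.13, where 49.9% of all rows were lower. The list and this direction were known from earlier results on the same libraries.

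By role, the rows named for actomyosin genes (myosins, tropomyosins and their kinase) were lower in 6 of 6 with V. cholerae vesicles. Their median was -0.18, with MYH10, the row of most counts, at -0.03 ± 0.41. Monomer binding and turnover was lower in 3 of 3, with TMSB10, a thymosin that holds actin monomers, at -0.24 ± 0.43. Crosslinkers were lower in 3 of 4, with the spectrin row SPTAN1 at -0.30 ± 0.31, and TAGLN was the exception. The lower rows include FLNA, which was picked with this direction known. Of the nucleators 3 of 7 were lower, with FMNL3 at -0.08 ± 0.25. Focal adhesion rows were lower in 4 of 6, with the kinase-like ILK at 0.05 ± 0.22. MKL1, the older name of the SRF coactivator MRTFA, was at 0.17 ± 0.38. None of these named rows passed the test.

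With E. coli vesicles the same 31 rows were split, 15 lower and 16 higher, with 50.7% of all rows lower, at a median of 0.02 against -0.01 over all rows tested, and 0 were called with or without the block. The actomyosin rows were lower in 2 of 6, at a median of 0.20, with MYH10 at 0.24 ± 0.41. TMSB10 was at 0.25 ± 0.42, SPTAN1 at -0.18 ± 0.31, FMNL3 at 0.06 ± 0.25, ILK at 0.06 ± 0.22 and MKL1 at 0.49 ± 0.38, all with edgeR adjusted p-values above the threshold. In replicates 1 and 2 alone 9 of 28 rows were lower, at a median of 0.08, where 49.5% of all rows were lower. Between the vesicles 22 of the 31 rows were lower with V. cholerae vesicles (47.5% of all rows were), at a median of -0.20 against 0.02 over all rows, with 0 called.

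**Figure D5:**
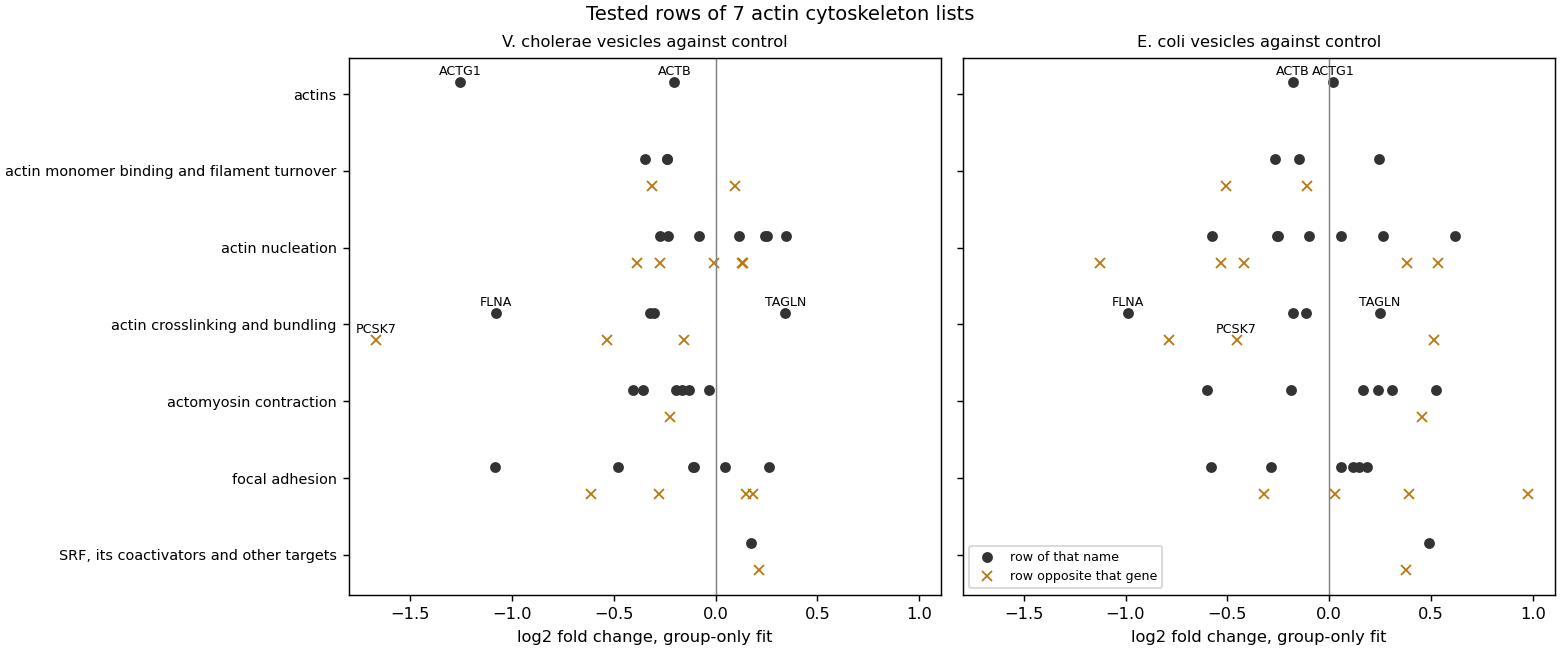
Log2 fold change (horizontal axis) of every tested row of 7 of the 8 actin lists by role, for rows of the listed name (dots) and rows on the opposite strand of a listed gene (crosses), in each vesicle comparison against control. PCSK7, ACTG1 and FLNA stand at the left edge with V. cholerae vesicles, at -1.67, -1.25 and -1.08, and the medians over all 8 lists are -0.20 there and 0.02 with E. coli vesicles.

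Because the strand behind a row's reads is not settled, the rows across from the listed genes were read as well. Of 16 such rows with enough counts, 10 were lower with V. cholerae vesicles, at a median of -0.19, and 8 of 16 with E. coli vesicles, at a median of -0.04. In the fits of all libraries, PCSK7, opposite TAGLN, was the 1 row of the 16 called with V. cholerae vesicles, and it was called with the block only, where 0.353% of all rows were called. TAF10, a subunit of the general transcription factor TFIID whose exons lie opposite ILK, was called with E. coli vesicles with the block, at 0.91 ± 0.22 (edgeR adjusted p = 0.0422), and not by group alone (0.98 ± 0.32, adjusted p = 0.256). It was 1 of 16 opposite rows called with the block, where 2.28% of all rows were called. At vinculin, a focal adhesion protein picked out after the values were seen, the VCL row was at -1.08 ± 0.52 with V. cholerae vesicles on 3 to 16 counts per library, and the AP3M1 row opposite it was at -0.61 ± 0.29. The VCL value rests on replicates 1 and 2, at 3 counts each, while replicate 3 held 16.

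Rows whose promoters hold a CArG box, as ACTG1 and FLNA do, were split in direction. Of 39 tested rows with a box, 22 were lower with V. cholerae vesicles, at a median of -0.086, where 49.2% of all rows were lower, at a median of 0.0063. Of the same 39 rows, 17 were lower with E. coli vesicles, at a median of 0.035, where 50.7% of all rows were lower, at a median of -0.0076. Of the 39 rows 0 were called in either comparison by edgeR, with or without the block, where 0.0544% and 0.19% of all rows were called by group alone and 0.353% and 2.28% with the block.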

How the data were processed

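The deposited table holds raw counts per gene row in 9 libraries (single 50 bp reads, TruSeq stranded mRNA, per the labels' protocols). The submitters' processing notes list HTSeq 0.6.1 and Cufflinks 2.2.1, the aligners TopHat2 2.0.12 and Bowtie2 2.2.3, SAMtools 0.1.19, FastQC and the build hg19. The sources used here give neither the strand setting nor the annotation. Members and lists were chosen with earlier results of these data known.

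Counts were fitted in edgeR 4.0.16 (R 4.3.3) by group, with filterByExpr (minimum count 10, total 15), which kept 3679 rows with 94.4% of counts, TMM scaling and robust quasi-likelihood tests. Benjamini-Hochberg adjustment ran over all rows tested, with calls under 0.05. The SE is the log2 fold change divided by the square root of F. The scripts were tested on simulated data. V. cholerae replicates 1 and 2 differed little more than by sampling noise (chi-square per degree of freedom 1.05, p = 0.00561, against 1.33 in controls and 1.90 with E. coli vesicles) and were kept as separate libraries. Named rows were the members, called rows of the lists and rows opposite them, the row of most counts per list, and the 5 rows most like PCSK7 and ACTG1. Of the 8 actin lists, 1 is counted in the totals and not reported here on its own. Log2 CPM used a prior count of 2. Gene overlaps came from GENCODE 29 on GRCh38, not the build of the counts, so no gene coordinates are given.

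Deviations from group means correlated between all same-numbered libraries at 0.115 to 0.677, over the threshold of 0.1, with replicate 3 at 0.450 to 0.677. For replicates 1 and 2, same-numbered libraries gave 0.115 to 0.328 and libraries of different number 0.133 to 0.350. Replicates 1 and 2 were thus not paired by number in these values, and only replicate 3 stood apart. The block was fitted beside each comparison because the threshold was passed. Alternatives were limma voom 3.58.1, DESeq2 1.42.0, other scalings and filters, the block, each library left out, replicates 1 and 2 alone and, added after the data were seen, V. cholerae replicates 1 and 2 summed.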

Additional observations from a re-analysis of the deposited data

How the results depend on the processing

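Of 436 values of the 5 rows under the alternatives, 385 kept their direction and their side of the threshold, 33 changed sign and 18 passed the test where the group-only fit had not. RLE factors, no filter, the other filter (CPM at least 5 in at least 3 libraries, which kept 8656 rows), the fit without the robust option, the 2 groups compared alone, DESeq2 and V. cholerae replicates 1 and 2 summed changed no sign and no call of a row. DESeq2 gave no adjusted p for FLNA and TAGLN with E. coli vesicles.

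With the replicate block, PCSK7 was called with V. cholerae vesicles at -1.58, which made 1 member called in place of 0, ACTG1 with E. coli vesicles changed sign to -0.049, and no other call of a member changed. With replicates 1 and 2 only, 2 members were called with V. cholerae vesicles (PCSK7 at -1.68, ACTG1 at -1.09), 1 with E. coli vesicles (FLNA at -1.42) and 2 between the vesicles (ACTG1 at -1.28, PCSK7 at -1.16). In that fit 1.88%, 24.4% and 23.6% of all rows were called in these comparisons. There the direct values of ACTB, FLNA and TAGLN changed sign to 0.13, 0.51 and -0.27. With library size alone ACTG1 with E. coli vesicles was at -0.055 and ACTB between the vesicles at 0.035, and with limma voom ACTG1 with E. coli vesicles was at -0.087. The cause of these changes was not tested.

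Leaving out 1 library at a time, with or without the block, gave 0 to 3 members called with V. cholerae vesicles, 0 to 1 with E. coli vesicles and 0 to 2 between the vesicles. With the block and without E. coli replicate 3, 817 of 3883 rows were called with E. coli vesicles and 747 between the vesicles. These were the highest counts of all rows called in these 2 comparisons among the leave-out fits. Over these fits the log2 fold changes with V. cholerae vesicles were -2.01 to -1.34 for PCSK7, -1.50 to -0.90 for ACTG1, -1.43 to -0.66 for FLNA, -0.52 to 0.20 for ACTB and -0.0053 to 0.54 for TAGLN. With E. coli vesicles they were -0.41 to 0.056 for ACTB, -0.28 to 0.37 for ACTG1, -1.49 to -0.55 for FLNA, -0.78 to -0.19 for PCSK7 and 0.049 to 0.47 for TAGLN. Between the vesicles they were -1.63 to -0.92 for ACTG1, -1.48 to -0.89 for PCSK7, -0.34 to 0.37 for ACTB, -0.53 to 0.41 for FLNA and -0.24 to 0.33 for TAGLN. The count with V. cholerae vesicles reached 3 without E. coli replicate 3, with the block kept, where PCSK7, ACTG1 and FLNA were called among 77 of 3883 rows. These rows were chosen on that contrast, so their calls there are a description: with the block, that of PCSK7 was lost when replicate 1 or 2 of the controls or of the V. cholerae libraries was left out.

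With 10 to 48 counts per library, each value of these rows carries a wide counting error, and differences under about 1 on the log2 scale lie within the 95% intervals given.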
